A study of Homo sapiens with 13 samples.

Results

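This comparison sets TE11 cells kept for 48 h with 10 µM chloroquine and 25 µM 5-fluorouracil (5-FU) together, called the combination (n = 3), against TE11 cells kept for the same time in 0.1% DMSO, the vehicle (n = 4). These 7 libraries are part of a series of 13, whose other libraries come from cells given chloroquine alone (10 µM, n = 3) or 5-FU alone (25 µM, n = 3). TE11 is labelled as an esophageal squamous cell carcinoma line, so all values describe 1 cell line at 1 dose of each drug and 1 time, and the labels do not say whether the drugs were given in DMSO or whether the libraries of a group came from separate cultures. The p-values therefore measure the spread between these libraries, which may be technical. All genes were considered: of 60591 genes in the table, 19514 had enough counts to be tested.

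Chloroquine is a weak base that is trapped in acidic compartments, raises the pH of lysosomes and blocks the late steps by which autophagy cargo is broken down. 5-FU is a pyrimidine analogue that cells convert to nucleotides, which inhibit thymidylate synthase and enter RNA, where they disturb the maturation of ribosomal RNA, and DNA, where they provoke excision repair. Damage and ribosomal stress can stabilise p53, a transcription factor that turns on genes of growth arrest, repair and cell death. The title of the series names p53 signalling as the question behind giving both drugs.

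Total counts were 18927168 to 22089671 in the vehicle libraries and 21327600 to 22411504 in the combination libraries. Levels are given as CPM, a gene's counts relative to the total of its library, with TMM scaling, a factor that aligns the bulk of genes between libraries. Vehicle replicate 4 and combination replicate 2 carried transcripts of other tissues: COL1A2, a fibroblast collagen, had 7, 5, 1 and 741 counts in vehicle replicates 1 to 4 and 3, 153 and 5 in combination replicates 1 to 3. HBB, a hemoglobin chain of red cells, had 2, 0, 0 and 203 counts in vehicle and 1, 0 and 0 in the combination. The summed count of 16 fibroblast markers was 808 to 947 in vehicle replicates 1 to 3, 3517 in vehicle replicate 4, and 1843 in combination replicate 2 against 1502 and 1585 in the other two. That of 18 leukocyte markers was 133 to 189 in vehicle replicates 1 to 3, 721 in vehicle replicate 4 and 267 to 293 in the combination, and PTPRC, the defining leukocyte antigen, had 31 counts in vehicle replicate 4 and at most 3 in the other libraries of both groups. Summed acinar markers were 60 to 70 in vehicle replicates 1 to 3, 838 in vehicle replicate 4 and 141 to 159 in the combination. Of the markers with enough counts to be tested, 1 of 10 for fibroblasts was higher and 2 lower in the combination, 2 of 11 for leukocytes and 1 of 6 for acinar cells were higher and 0 lower, and 0 of 3 for red cells were higher and 1 lower. Defining markers of squamous epithelium, which the label of the cells calls for, were at or near 0: KRT5 had 0 counts in all 7 libraries, TP63 at most 2, KRT14 at most 12 and KRT13 at most 5. Other genes on the squamous lists were well counted, such as the desmosomal DSC3 with 2102 to 4113 counts and KRT10 with 377 to 1140. The 21 basal markers summed to 3374 to 3984 counts in vehicle and 5350 to 5876 in the combination, with 5 to 11 of them at 0 in each library. The neuronal filament gene NEFL had 2424 to 2979 counts.

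Both drugs together changed a large part of the transcriptome. At an adjusted p under 0.05 (edgeR, Benjamini-Hochberg), 10801 of 19514 genes differed from vehicle, which is 55.4% of the genes tested: 5489 (28.1%) were higher and 5312 (27.2%) lower. The changes were not evenly sized, since 1644 genes (8.42%) were at least 1 log2 unit higher and 577 (2.96%) at least 1 lower. The median log2 fold change over all genes was 0.0057. With total counts alone as the scale, that median moved by 0.148 and the calls became 7422 higher and 3659 lower, so small changes are read here relative to the TMM scale. Without vehicle replicate 4 and combination replicate 2, 9520 genes passed, 4818 higher and 4702 lower. For 11469 of the tested genes (58.8%) the CPM of the vehicle and combination libraries did not overlap. In bulk RNA, fewer cells in a given state and less RNA per cell cannot be told apart.

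The single drugs give a measure of where the combination stood apart, tested directly in the same fit. Against 5-FU alone 7517 genes differed (38.5%), 3937 higher (20.2%) and 3580 lower (18.3%), with 1.02% at least 1 log2 unit higher and 3.95% at least 1 lower. Against chloroquine alone 9867 differed (50.6%), 4846 higher (24.8%) and 5021 lower (25.7%), with 4.69% at least 1 higher and 4.42% at least 1 lower. Chloroquine replicates 1 and 2 carried transcripts of other tissues, with COL1A2 at 607, 450 and 4 counts in replicates 1 to 3. Leaving out chloroquine replicate 1, 2 or 3 gave 8549, 8562 or 9214 genes. The part of these transcripts in the calls was not tested. Of the 5489 genes above vehicle, 1073 were also above each single drug, 3181 did not pass against 5-FU, and 657 were below 5-FU alone. Of the 5312 genes below vehicle, 1135 were also below each single drug, 2786 did not pass against 5-FU, and 996 were above 5-FU alone. These comparisons share the combination libraries.

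The genes with the largest rises came from low levels in vehicle. OSTN, which encodes the secreted peptide osteocrin, was at 1.10, 1.14, 0.924 and 1.03 CPM in vehicle and 32.5, 30.2 and 27.4 CPM in the combination, a log2 fold change of 4.84 ± 0.16 (SE) with an adjusted p of 3.23e-11. The combination libraries also lay above 5-FU alone (15.8 CPM) by 0.92 ± 0.12 and above chloroquine alone (3.03 CPM) by 3.31 ± 0.15. LAMB3, the beta chain of laminin-332 in epithelial basement membranes, was at 0.550, 0.457, 0.340 and 0.309 CPM in vehicle and 6.67, 6.25 and 6.32 CPM in the combination (log2 fold change 3.94 ± 0.26). Neither single drug brought LAMB3 to that level: it was at 1.53 ± 0.652 CPM (SD) in chloroquine and 1.81 ± 0.357 CPM in 5-FU, and the combination was higher than each (log2 fold change 2.08 and 1.82). GPNMB, a glycoprotein of lysosomes and melanosomes that is induced by MiT/TFE factors, was at 0.769, 0.628, 1.12 and 1.13 CPM in vehicle and 11.8, 12 and 11.1 CPM in the combination. Its log2 fold change was 3.65 ± 0.16 against vehicle, 1.39 ± 0.15 against 5-FU and 2.68 ± 0.16 against chloroquine.

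Other large rises stood at different distances from the single drugs. ANXA1, a membrane-binding annexin, was at 5.11, 4.57, 4.28 and 7.01 CPM in vehicle and 63.1, 66.3 and 67.0 CPM in the combination (log2 fold change 3.64 ± 0.12), beside 55.7 ± 3.80 CPM in 5-FU, from which the combination was not separated (adjusted p = 0.084). SYTL5, an effector of RAB27 vesicle transport, rose by 3.86 on the log2 scale, to 13.3 CPM beside 2.55 in chloroquine and 8.13 in 5-FU. KRTAP19-1, a keratin-associated hair protein, rose by 3.52, to 53.2 CPM, and was higher than both chloroquine (34.4 CPM) and 5-FU (35.4 CPM), with log2 fold changes of 0.63 and 0.59. DDIT3, which encodes the stress factor CHOP, was at 6.81, 7.36, 6.13 and 6.86 CPM in vehicle and 54.4, 53.4 and 60.1 CPM in the combination (log2 fold change 3.05 ± 0.089), above chloroquine at 13.9 and 5-FU at 43.4 CPM. The rule that named the 4 genes of this paragraph required that the vehicle and combination libraries not overlap. Of all tested genes, 58.8% did not overlap either.

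The largest falls were in genes of less related kinds. SRPK3, a kinase of splicing factors known from muscle, was at 4.56, 5.54, 5.98 and 6.03 CPM in vehicle and 0.909, 0.764 and 0.903 CPM in the combination (log2 fold change -2.68 ± 0.19, adjusted p = 4.03e-08), against 5.75 ± 0.309 CPM in chloroquine and 2.57 ± 0.669 CPM in 5-FU. SLC7A11, the cystine importer, was at 27.5, 26.0, 27.3 and 26.7 CPM in vehicle and 4.76, 4.58 and 4.11 CPM in the combination, a log2 fold change of -2.58 ± 0.085. CA2, carbonic anhydrase II, was at 718, 708, 697 and 679 CPM in vehicle and 160.0, 163 and 171 CPM in the combination (log2 fold change -2.09 ± 0.044). Chloroquine alone had CA2 at 397 CPM and 5-FU alone at 124 CPM, so the combination lay below the former and above the latter, by a log2 fold change of -1.27 and 0.41. MYC, a driver of ribosome production and growth, was at 75.3, 76.5, 75.5 and 77.7 CPM in vehicle and 15.3, 18.2 and 16.7 CPM in the combination (log2 fold change -2.19 ± 0.075), with 73.6 CPM in chloroquine alone and 14.3 in 5-FU alone. In the network of MYC and its partners 4 of 12 tested genes were higher and 6 lower. Among genes named for the size of their fall, PRR22, CCDC61 and MFSD3, fell by 2.62, 2.27 and 2.01.

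**Figure D1:**
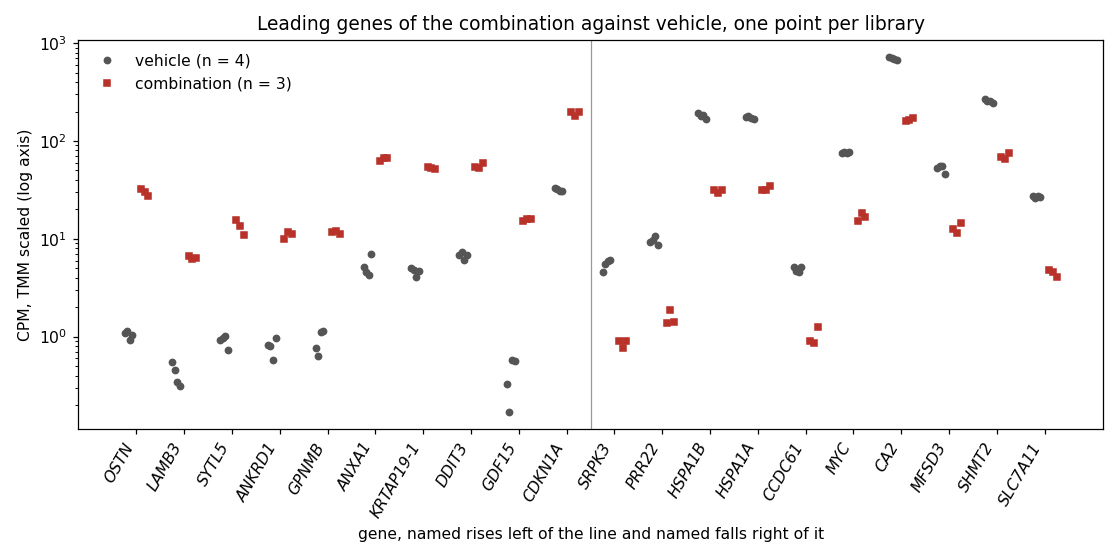
Levels of 10 genes named for their rise and 10 named for their fall, in CPM on a log axis, with grey circles for the 4 vehicle and red squares for the 3 combination libraries. In none of the 20 genes do the groups overlap, which the naming rule required of most of them. The OSTN points lie between 0.924 and 1.14 CPM in vehicle and between 27.4 and 32.5 CPM in the combination.

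Most genes that p53 activates rose. Of 18 tested targets in growth arrest and repair, 16 were higher and 0 lower, with a median log2 fold change of 0.98. Against 5-FU alone 10 of them were higher and 2 lower (median 0.25), beside 20.2% higher and 18.3% lower over all genes tested. CDKN1A, the inhibitor p21 that halts cyclin-dependent kinases, was at 32.9, 32.1, 31.1 and 30.6 CPM in vehicle and 196, 181 and 196 CPM in the combination, a log2 fold change of 2.59 ± 0.068 (adjusted p = 5.92e-12). Every combination library was above every library of either single drug, and the fits put it 0.41 above 5-FU (144 CPM) and 1.44 above chloroquine (70.4 CPM). GADD45A, a damage-induced arrest factor, was at 45.2, 40.4, 39.1 and 34.1 CPM in vehicle and 132, 122 and 148 CPM in the combination, with log2 fold changes of 1.76 against vehicle and 0.54 against 5-FU. XPC, a sensor of nucleotide excision repair, was at 60.8 ± 3.91 CPM (SD) in vehicle and 65.5 ± 1.22 CPM in the combination, which did not pass (log2 difference 0.11, adjusted p = 0.12). With total counts as the scale XPC passed as higher (0.26), and it passed in 3 other settings.

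Of 27 tested p53 targets in cell death, metabolism and stress signalling, 21 were higher and 3 lower (median 0.97). Against 5-FU alone 8 were higher and 8 lower (median -0.026), beside 20.2% higher and 18.3% lower over all genes tested. GDF15, a secreted cytokine of cell stress, was at 0.330, 0.171, 0.584 and 0.567 CPM in vehicle and 15.1, 15.9 and 15.9 CPM in the combination. Its log2 fold change of 5.19 ± 0.19 was larger than that of any gene above, yet 5-FU alone had GDF15 at 26.5 ± 3.59 CPM and the log2 fold change of the combination against it was -0.76 ± 0.12 (adjusted p = 0.000252). FAS, the death receptor, was at 10.2, 10.4, 10.6 and 12.4 CPM in vehicle and 23.9, 26.7 and 24.3 CPM in the combination, and BBC3, the BH3-only protein PUMA, was at 13.5, 12.2, 13.5 and 13.5 CPM and 27.1, 23.4 and 28.1 CPM. Their log2 fold changes were 1.20 and 0.99, and neither was separated from 5-FU alone (adjusted p = 0.97 and 0.22). BAX, which permeabilises mitochondria, rose by 0.41.

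Among 12 genes of p53 and its feedback regulators, 4 were higher and 4 lower, beside 28.1% higher and 27.2% lower over all genes tested. Their median was 0.022, or -0.0042 without vehicle replicate 4 and combination replicate 2. MDM2, the ligase that degrades p53 and is itself a p53 target, was at 116, 108, 115 and 111 CPM in vehicle and 188, 188 and 195 CPM in the combination. The combination held more MDM2 than 5-FU (156 CPM, log2 fold change 0.29) and than chloroquine (103 CPM, 0.88). TP53BP1, a scaffold at DNA breaks, fell by 1.07 on the log2 scale, to 48.0, 47.6 and 44.0 CPM from 87.6, 100.1, 99.4 and 103 CPM.

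**Figure D2:**
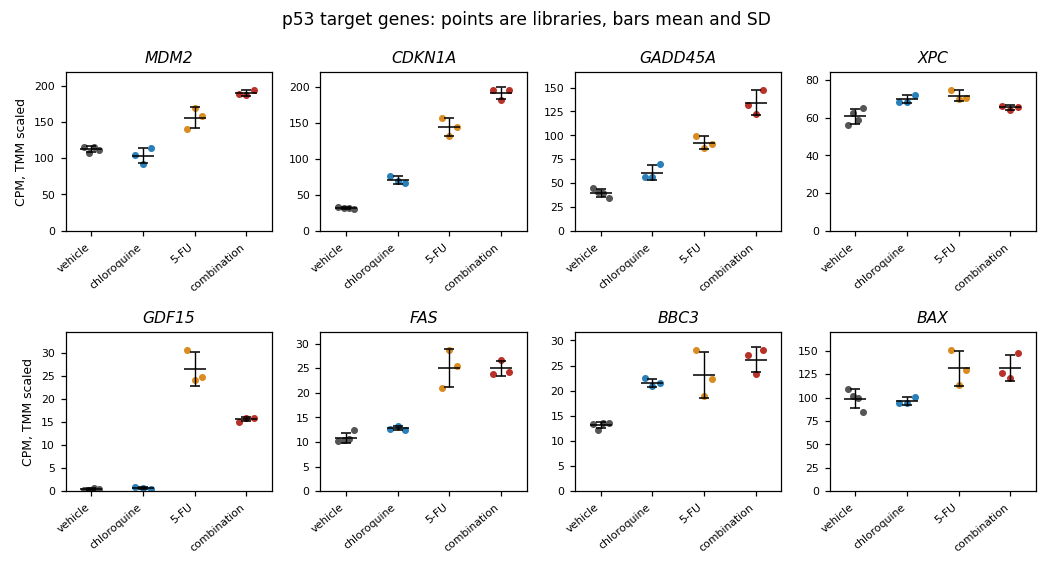
Levels of 8 genes that p53 regulates in the 4 groups, in CPM from 0, with a point per library and bars for the mean and SD. CDKN1A, GADD45A and MDM2 are highest in the combination, GDF15 is highest in 5-FU alone, and the XPC points of vehicle and the combination overlap.

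Genes of the death machinery moved in both directions. Of 12 tested BCL2 family genes, 8 were higher and 2 lower (median 0.56), and of 19 caspases, adaptors and inhibitors 9 were higher and 3 lower (median 0.17). BAD, a BH3-only promoter of death, was at 32.6, 30.6, 32.6 and 27.9 CPM in vehicle and 68.5, 63.3 and 86.2 CPM in the combination (log2 fold change 1.23 ± 0.13). BCL2L11, the BH3-only protein BIM, went the other way, from 43.6, 44.9, 45.3 and 44.4 CPM to 29.3, 29.3 and 30.3 CPM (log2 fold change -0.59 ± 0.05). MCL1, a survival protein, was at 319 ± 5.04 CPM (SD) in vehicle and 293 ± 11.1 CPM in the combination, a log2 difference of -0.12 that changed sign to 0.026 with total counts as the scale. XIAP, which inhibits caspases, was at 99.4, 91.9, 91.4 and 83.4 CPM in vehicle and 162, 141 and 161 CPM in the combination. XIAP was higher in the combination than in each other group, with log2 fold changes of 0.76 ± 0.08 against vehicle, 0.82 ± 0.086 against 5-FU (87.8 CPM) and 0.55 ± 0.086 against chloroquine (106 CPM). DIABLO, which counteracts XIAP, was at 2.66 ± 0.181 CPM in vehicle and 6.57 ± 0.595 CPM in the combination (log2 fold change 1.30 ± 0.12).

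Cell cycle genes were lower, among them those of replication and mitosis. Of 43 mitosis and spindle genes, 29 were lower and 4 higher (median -0.33), and of 45 replication origin and fork genes 30 were lower and 5 higher (median -0.28), against 27.2% lower and 28.1% higher over all genes. Among 20 G1 and S phase cyclins, kinases and E2F factors, 9 were lower and 1 higher, and their median of -0.089 turned to 0.059 with total counts as the scale, where 6 were lower and 5 higher. On that scale 22 mitosis genes were lower and 7 higher, and 21 replication genes lower and 8 higher. PLK1, a mitotic kinase, was at 230.4, 227, 230.3 and 218 CPM in vehicle and 114, 107 and 116 CPM in the combination (log2 fold change -1.01 ± 0.074). CDC20, which activates the anaphase-promoting complex, was at 184, 179, 180.4 and 182 CPM in vehicle and 101, 105 and 106 CPM in the combination (-0.80 ± 0.067). KIF20A, a kinesin of cytokinesis, fell by 1.01 against vehicle, and its log2 fold change against 5-FU alone was -0.70.

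The promoters of mitotic genes are known for 2 short elements, the CHR (TTTGAA) and the CCAAT box, and both are shown here in genes that fell. In RefSeq promoter windows (GRCh38.p14, 250 bases before to 50 after the start), TTTGAA on either strand stood in 24 of the 36 mitosis genes with a window, 66.7%, against 9.64% of 11738 tested genes and 15.4% of 27305 windows in the table. CCAAT on either strand stood in 27 of the 36, 75%, against 36.4% of tested genes and 35.7% of all windows. Of the 26 mitosis genes with a window that were lower, 19 held TTTGAA and 22 held CCAAT, as did 1 and 0 of the 3 that were higher. Of the 7 that did not pass, 4 held TTTGAA and 5 held CCAAT. A match of letters is a description and no evidence of binding. The 250 bases before the start are printed 5′ to 3′ on the strand of the gene, for PLK1 from chr16:23678639-23678888 (plus strand) and for CDC20 from chr1:43358731-43358980 (plus strand), with both motifs, on either strand, in capitals.
PLK1: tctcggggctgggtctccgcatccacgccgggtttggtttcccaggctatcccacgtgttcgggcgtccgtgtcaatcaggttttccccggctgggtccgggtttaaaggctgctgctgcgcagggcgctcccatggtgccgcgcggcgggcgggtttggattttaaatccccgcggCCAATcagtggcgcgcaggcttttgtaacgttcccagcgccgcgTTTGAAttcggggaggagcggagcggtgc
CDC20: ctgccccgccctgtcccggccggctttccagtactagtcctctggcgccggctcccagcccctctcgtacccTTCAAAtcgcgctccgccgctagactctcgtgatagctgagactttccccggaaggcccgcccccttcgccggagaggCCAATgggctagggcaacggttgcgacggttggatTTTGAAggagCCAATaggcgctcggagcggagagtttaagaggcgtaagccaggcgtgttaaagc
The PLK1 window held CCAAT from base -73 and TTTGAA from base -29, counted from the start. In CDC20 a CCAAT at -100 and another at -55 flanked TTTGAA at -65, and a TTTGAA on the other strand began at -178.

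POLA1, the catalytic subunit of DNA polymerase alpha, was at 121, 134, 136 and 135 CPM in vehicle and 55.9, 50.7 and 47.3 CPM in the combination (log2 fold change -1.36 ± 0.061), near 5-FU alone at 52.3 CPM. PRIM1, a primase subunit of the same complex, moved the other way, from 51.6, 49.5, 53 and 51.1 CPM to 74.5, 70.8 and 78.9 CPM (log2 fold change 0.54 ± 0.052). PCNA, the sliding clamp, was at 531 ± 16 CPM (SD) in vehicle and 502 ± 15.7 CPM in the combination and did not pass (adjusted p = 0.19). CCND1, cyclin D1 of the G1 phase, was at 96.9, 96.2, 104 and 99.5 CPM in vehicle and 40.8, 37.1 and 36.7 CPM in the combination, a log2 fold change of -1.37 ± 0.057, and the log2 fold change against 5-FU alone (54.3 CPM) was -0.51 ± 0.06. CDKN1C, the inhibitor p57, rose by 0.98 from 2.60 CPM, while CDKN1B, the inhibitor p27, was at 62.1 ± 1.81 CPM in vehicle and 56.6 ± 1.82 CPM in the combination (log2 difference -0.13, adjusted p = 0.052), and passed as lower in 4 other settings, DESeq2 among them (adjusted p = 0.037). Of 6 tested inhibitors of cyclin-dependent kinases other than p21, 3 were higher and 1 lower (median 0.23).

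DNA repair lists were divided. Of 31 Fanconi anemia and homologous recombination genes, 12 were higher and 13 lower, with a median of -0.086 that became 0.062 with total counts as the scale. XRCC2, a gene of homologous recombination, was at 66.1, 65.6, 64.8 and 70.8 CPM in vehicle and 125, 118 and 124 CPM in the combination, and BRCA1 was at 134, 149, 150.4 and 163 CPM and 208, 198 and 192 CPM, log2 fold changes of 0.87 and 0.42. NBN, a subunit of the break-sensing MRN complex, fell from 116, 123, 119.7 and 131 CPM to 59.6, 62.4 and 54.7 CPM (log2 fold change -1.05 ± 0.084). Of 17 genes of uracil excision and mismatch repair, 9 were lower and 2 higher (median -0.28). LIG3, the ligase that seals excised sites, was at 54.8, 56.2, 55.4 and 56.2 CPM in vehicle and 23.7, 25.2 and 23.6 CPM in the combination, and its log2 fold change of -1.20 ± 0.062 went beyond 5-FU (34.1 CPM) and chloroquine (31.4 CPM). Among 17 checkpoint genes 5 were higher and 5 lower, or 5 and 3 without vehicle replicate 4 and combination replicate 2, CHEK1 with 0.38 and ATR, the replication stress kinase, with -0.90 on the log2 scale.

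Among 23 pyrimidine genes that handle 5-FU, 3 were higher and 10 lower, with a median of -0.13 that became 0.018 with total counts as the scale, where 5 were higher and 7 lower. UPP1, a uridine phosphorylase that can attach ribose to 5-FU, was at 8.52, 7.25, 7.78 and 6.65 CPM in vehicle and 17.1, 18.7 and 21.9 CPM in the combination. UPP1 was at 9.95 ± 0.625 CPM (SD) in chloroquine and 9.56 ± 0.968 CPM in 5-FU, and neither single drug was tested against vehicle. The combination was higher by 1.35 ± 0.10 than vehicle, by 1.01 ± 0.11 than 5-FU and by 0.95 ± 0.11 than chloroquine. TYMS, thymidylate synthase and the enzyme that 5-FU inhibits, was at 100.1, 101, 99.7 and 102 CPM in vehicle and 114, 115 and 119 CPM in the combination (log2 fold change 0.20 ± 0.051). DHODH, of de novo pyrimidine synthesis, fell by 1.03, and DPYD, which breaks 5-FU down, was barely detected, at 0.440, 0.114, 0.340 and 0.206 CPM in vehicle and 0.693, 0.405 and 0.181 CPM in the combination (adjusted p = 0.34).

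Enzymes of serine synthesis and folate one-carbon metabolism fell together. Of 20 tested, 17 were lower and 1 higher, with a median log2 fold change of -0.66. SHMT2, the mitochondrial serine hydroxymethyltransferase, was at 267, 255, 256 and 243 CPM in vehicle and 67.9, 65.9 and 74.8 CPM in the combination (-1.88 ± 0.059), and PHGDH, the first enzyme of serine synthesis, at 660.4, 659, 634 and 573 CPM and 247, 235 and 275 CPM (-1.32 ± 0.10). ALDH1L2, a mitochondrial folate enzyme, lay at 82.4 CPM in chloroquine alone but at 14.3, 12.7 and 13.1 CPM in the combination against 42.2, 42.9, 45.7 and 49.6 CPM in vehicle.

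The integrated stress response did not move as a block. Of 26 factors and targets, 11 were higher and 12 lower (median 0.073), or 13 and 7 with total counts as the scale. ATF4, its central transcription factor, was at 792, 789, 756 and 752 CPM in vehicle and 474, 459 and 506 CPM in the combination (log2 fold change -0.69 ± 0.043), and ASNS, asparagine synthetase and an ATF4 target, fell by 1.28 from 3.35 CPM. DDIT3 rose in the same cells, as given above. TRIB3, a target of both, was at 24.6, 25.3, 25.3 and 25.8 CPM and 29.6, 27.2 and 32.6 CPM, a log2 difference of 0.24 that no longer passed without combination replicate 1 (0.24) or replicate 3 (0.17). Of 21 amino acid transporters, 12 were lower and 4 higher (median -0.39), among them SLC7A5, the leucine importer, from 259.8, 251, 269 and 254 CPM to 83.5, 83.1 and 87.7 CPM. Its partner chain SLC3A2 rose, from 204, 199, 199 and 189 CPM to 272, 274 and 304 CPM. Cytosolic aminoacyl-tRNA synthetases charge tRNAs. Of 16 tested out of 20 listed, 13 were lower and 0 higher (median -0.39), and VARS1 showed the largest fall (-1.51 ± 0.10).

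Most cytosolic chaperones fell. Of 26 heat shock chaperones of the cytosol and mitochondria, 18 were lower and 4 higher (median -0.42), and all 8 subunits of the CCT chaperonin, which folds actin and tubulin, were lower (median -0.31), 5 of them with total counts as the scale. HSPA1B, an inducible HSP70, was at 195, 179, 185 and 169.8 CPM in vehicle and 31.2, 29.5 and 31.6 CPM in the combination (log2 fold change -2.57 ± 0.059), and HSPA1A at 176, 179.8, 173 and 167 CPM and 31.3, 31.7 and 34.5 CPM (-2.42 ± 0.07). The 2 genes are near-identical copies, so the division of reads between them is uncertain. For both, the combination was below chloroquine alone (46.6 and 44.8 CPM) and below 5-FU alone (41.8 and 45.2 CPM). HSPA8, the constitutive HSP70, was at 2708, 2753, 2726 and 2859.8 CPM in vehicle and 1437, 1457 and 1421 CPM in the combination (log2 fold change -0.94 ± 0.033).

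HSPB8, a small heat shock protein that works with the autophagy cochaperone BAG3, rose from 0.165, 0.114, 0.146 and 0.155 CPM to 1.39, 1.12 and 0.903 CPM (log2 fold change 2.92 ± 0.26), with 1.33 and 1.38 CPM in chloroquine and 5-FU, from which it was not separated (adjusted p = 0.43 and 0.33). HSPB1, HSP27, was at 51.6, 47.3, 49.7 and 39.6 CPM in vehicle and 83.0, 76.0 and 95.3 CPM in the combination (0.85 ± 0.10). The other two members that rose were the J-domain cochaperones DNAJB4 and DNAJA1, by 0.80 and 0.18. Heat shock genes are activated by HSF1 through repeats of nGAAn, of which GAANNTTC is a core pair. That string stood in 9 of 24 heat shock genes with a RefSeq window, 37.5%, against 4.70% of tested genes and 6.87% of all windows. It was found in 5 of the 17 lower genes with a window, in 3 of the 4 higher ones and in 1 of the 3 that did not pass. The 250 bases before the start are printed to show that genes that moved in opposite directions hold the string, in capitals, for HSPA1A from chr6:31815293-31815542 (plus strand), HSPA8 from chr11:123062137-123062386 (minus strand) and HSPB8 from chr12:119178681-119178930 (plus strand).
HSPA1A: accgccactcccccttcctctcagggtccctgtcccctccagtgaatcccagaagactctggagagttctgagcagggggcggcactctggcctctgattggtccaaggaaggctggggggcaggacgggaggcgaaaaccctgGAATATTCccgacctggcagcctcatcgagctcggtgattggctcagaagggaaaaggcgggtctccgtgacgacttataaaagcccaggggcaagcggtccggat
HSPA8: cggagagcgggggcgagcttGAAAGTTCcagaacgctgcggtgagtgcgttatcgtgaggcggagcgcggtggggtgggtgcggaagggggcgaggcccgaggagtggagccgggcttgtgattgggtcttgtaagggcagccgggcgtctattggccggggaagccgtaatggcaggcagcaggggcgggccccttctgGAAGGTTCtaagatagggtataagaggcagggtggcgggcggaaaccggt
HSPB8: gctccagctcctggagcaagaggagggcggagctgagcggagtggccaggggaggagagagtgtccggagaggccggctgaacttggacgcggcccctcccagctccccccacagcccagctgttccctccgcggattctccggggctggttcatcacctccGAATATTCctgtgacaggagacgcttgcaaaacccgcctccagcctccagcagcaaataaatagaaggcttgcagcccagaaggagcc
HSPA1A and HSPB8 hold the same 8 bases, GAATATTC, beginning at -106 and -88 from their starts. HSPA8 holds GAAAGTTC at -230 and GAAGGTTC at -50.

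Chaperones of the endoplasmic reticulum were lower in 13 and higher in 5 of 24 members (median -0.15). HSPA5, the luminal HSP70 BiP, was at 843, 882, 827 and 843 CPM in vehicle and 590.0, 612 and 606 CPM in the combination (log2 fold change -0.49 ± 0.038). With total counts as the scale 8 members were lower and 9 higher. XBP1, a factor of the unfolded protein response, was at 151 ± 6.16 CPM (SD) in vehicle and 137 ± 4.90 CPM in the combination, a log2 difference of -0.14 that turned to 0.0085 on that scale.

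Genes of the ribosome and of its assembly were mostly lower. Of 78 cytosolic ribosomal protein genes, 65 were lower and 1 higher, with a median log2 fold change of -0.44. Of 59 assembly and rRNA processing factors 51 were lower and 1 higher (median -0.46). With total counts as the scale 47 ribosomal protein genes were lower and 4 higher (median -0.29). On that scale 42 assembly factors were lower and 1 higher (median -0.31). RPL3, of the large subunit, was at 1122, 1093, 1098 and 1018 CPM in vehicle and 439, 432 and 453 CPM in the combination (-1.29 ± 0.058), and RPL10A had the largest fall of the list (-1.42 ± 0.06). The member that rose was RPL17, from 29.5, 29.7, 28.0 and 26.3 CPM to 44.1, 45.6 and 45.5 CPM. RRP12, needed for export of preribosomes, was at 146, 148, 149 and 138 CPM in vehicle and 50.9, 50.8 and 52.9 CPM in the combination (-1.5 ± 0.08), and NPM1, nucleophosmin, at 1309, 1229, 1238 and 1228 CPM and 663, 702 and 689.6 CPM. Of 14 RNA polymerase I genes 7 were lower and 1 higher (median -0.21), or 6 and 4 (median -0.057) with total counts as the scale, and of 18 snoRNA host genes and nuclear long RNAs 9 were lower and 6 higher (median -0.24). Ribosomal protein genes have processed pseudogenes, and the labels do not give how reads were divided between them and the genes.

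Against 5-FU alone, 37 of the 78 ribosomal protein genes were higher and 2 lower (median 0.21, with 20.2% and 18.3% of all genes). Against chloroquine alone 3 were higher and 49 lower (median -0.34, with 24.8% and 25.7% of all genes). RPS6, of the small subunit, was at 2545 ± 94.0 CPM (SD) in vehicle, 2451 ± 26.3 in chloroquine, 1431 ± 63.6 in 5-FU and 1791 ± 91.2 in the combination, which put the combination between the single drugs. Ribosomal protein transcripts are known to begin with a pyrimidine tract. The string CCTTT, on either strand of the 300-base RefSeq windows, stood in 44 of 62 ribosomal protein genes, 71%, against 48.7% of tested genes and 54.6% of all windows. A match anywhere in the window does not place such a tract at the start of the transcript. The string stood in 37 of 52 lower genes, 7 of 9 that did not pass and 0 of 1 higher. Of 45 translation factors, 29 were lower and 2 higher (median -0.30), or 22 and 9 with total counts as the scale. EEF2, the translocating elongation factor, fell from 3883, 3789.8, 3999.8 and 4053 CPM to 2532, 2509.9 and 2680.2 CPM, and EIF5, an initiation factor, rose from 336, 344, 347 and 329 CPM to 473, 476 and 462 CPM.

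The row named EIF4A1, an RNA helicase of initiation, was at 13.1, 14.8, 12.9 and 12.7 CPM in vehicle and 2.81, 3.28 and 3.57 CPM in the combination, and at 16.1 and 15.9 CPM in chloroquine and 5-FU. Its own row held the smaller part of the reads given to it and its copies. Summed over 15 rows of the gene, its read-through and its pseudogenes, the level was 366 ± 5.26 CPM (SD) in vehicle, 224 ± 7.42 in chloroquine, 173 ± 18.2 in 5-FU and 174 ± 4.82 in the combination. The fall of the single row against both drugs is therefore uncertain. RN7SL1, the RNA of the signal recognition particle, was at 64.9, 31.5, 26.9 and 13.1 CPM in vehicle and 228, 108 and 438 CPM in the combination (log2 fold change 2.92 ± 0.52); its libraries varied widely within both groups.

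**Figure D3:**
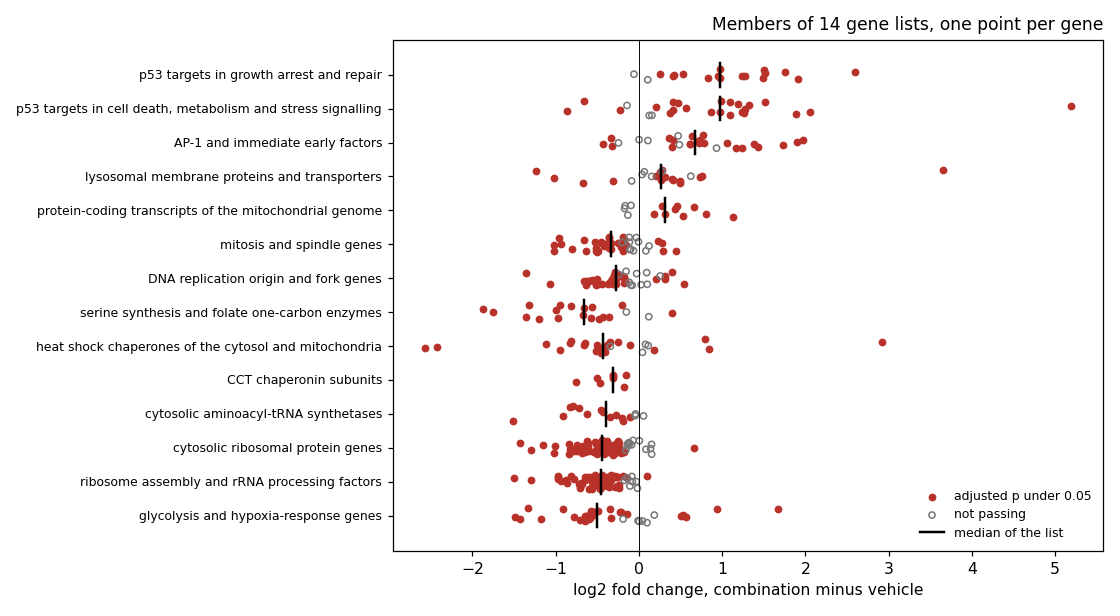
Log2 fold changes, combination minus vehicle, of the members of 14 gene lists, with filled red points for genes that passed, open grey circles for genes that did not, and a black bar at the median of the list. The p53 lists lie to the right with medians of 0.98 and 0.97, and the ribosomal, assembly, serine and folate and glycolysis lists to the left with medians of -0.44, -0.46, -0.66 and -0.50.

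Genes of the lysosome moved in both directions. Of 23 membrane proteins and transporters, 13 were higher and 4 lower (median 0.26), and of 21 V-ATPase subunits, which acidify the lysosome, 11 were higher and 2 lower (median 0.21). Of 40 hydrolases of the lumen, 11 were higher and 17 lower (median -0.19), which became 12 and 12 with total counts as the scale. GAA, acid alpha-glucosidase, was at 111, 111, 110.5 and 98.8 CPM in vehicle and 40.7, 38.3 and 47.2 CPM in the combination (log2 fold change -1.36 ± 0.10), while chloroquine alone had 112 and 5-FU alone 89.0 CPM. IDUA, alpha-L-iduronidase, rose from 6.54, 5.99, 6.13 and 6.03 CPM to 17.7, 17.7 and 21.2 CPM, still below 5-FU alone at 34.7 CPM. ATP13A2, a lysosomal polyamine exporter, fell by 1.23, and LAMP1, a main protein of the lysosomal membrane, was at 87.9 ± 1.55 CPM (SD) in vehicle and 82.7 ± 4.06 CPM in the combination (adjusted p = 0.24).

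ATP6V0D2, a V-ATPase subunit of osteoclasts and kidney, was at 0.220, 0.399, 0.0486 and 0.155 CPM in vehicle and 2.64, 2.88 and 2.71 CPM in the combination, with 6.23 CPM in 5-FU and 0.147 in chloroquine. RRAGC, a Rag GTPase that ties mTORC1 to the lysosome, was at 44.4, 39.4, 37.2 and 34.5 CPM in vehicle and 75.0, 77.2 and 79.2 CPM in the combination. RRAGC was higher than vehicle by 0.99 ± 0.079, than 5-FU by 0.59 ± 0.083 and than chloroquine by 0.95 ± 0.085. Of 10 tested MiT/TFE and folliculin genes, 6 were higher and 3 lower (median 0.27), or 6 and 1 without vehicle replicate 4 and combination replicate 2, and TFEB itself was at 2.87 ± 0.276 CPM and 3.10 ± 0.525 CPM (adjusted p = 0.64).

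Autophagy delivers cargo in membranes that fuse with lysosomes, and its receptors bind that cargo. Of 19 tested receptor and ATG8 genes, 12 were higher and 2 lower (median 0.28), and of 38 genes of the core machinery 14 were higher and 14 lower (median 0.056), or 20 and 6 with total counts as the scale. OPTN, a receptor for ubiquitinated cargo, was at 24.1, 23.6, 23.1 and 24.0 CPM in vehicle and 71.5, 69.9 and 71.9 CPM in the combination (log2 fold change 1.59 ± 0.048), above chloroquine (45.9 CPM) and 5-FU (58.1 CPM). SQSTM1, the receptor p62, was at 33.1, 36.3, 33.2 and 33.5 CPM in vehicle and 54.9, 50.9 and 64.7 CPM in the combination (0.74 ± 0.094), and MAP1LC3B, an ATG8 protein that marks autophagosomes, at 144, 138, 139 and 129 CPM and 209, 212 and 193 CPM (0.57 ± 0.065). BECN1, of the initiating lipid kinase complex, fell by 0.32. ULK1, the initiating kinase, was at 75.9 CPM in vehicle, 85.6 in chloroquine, 117 in 5-FU and 63.0 in the combination, and the log2 fold change against 5-FU was -0.90 ± 0.084.

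Cholesterol leaves lysosomes after uptake, and cells sense its supply through SREBP. Of 31 genes of cholesterol synthesis, uptake and SREBP control, 11 were higher and 8 lower than vehicle (median 0.077), or 18 and 7 with total counts as the scale. Against 5-FU alone 16 were higher and 5 lower (median 0.28), beside 20.2% higher and 18.3% lower over all genes tested. Against chloroquine alone 7 were higher and 12 lower (median -0.040), beside 24.8% higher and 25.7% lower over all genes tested. INSIG1, a sterol-sensing brake on SREBP, was at 90.4 ± 4.48 CPM (SD) in vehicle, 192 ± 3.14 in chloroquine, 39.1 ± 2.70 in 5-FU and 125 ± 2.79 in the combination. The combination was above vehicle by 0.47 ± 0.053 and above 5-FU by 1.68 ± 0.06 on the log2 scale, and its log2 fold change against chloroquine was -0.62 ± 0.057. HMGCS1, of the mevalonate pathway, was at 103, 149.9, 59.8 and 110.0 CPM in the same order of groups, and its combination libraries were not separated from vehicle (log2 difference 0.088, adjusted p = 0.22), although they passed as higher with total counts as the scale (0.24) and with a filter at 10 CPM (0.15). SREBF1, which drives fatty acid synthesis, fell from 20.7, 17.7, 20.9 and 18.8 CPM to 7.40, 7.91 and 9.79 CPM, below both single drugs (16.6 and 18.4 CPM).

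Antioxidant genes were lower in 19 and higher in 5 of 29 members (median -0.44). PIR, an NRF2-induced nuclear protein, was at 21.4, 19.3, 18.9 and 17.1 CPM in vehicle and 4.76, 4.72 and 5.33 CPM in the combination (-1.96 ± 0.13). HMOX1, heme oxygenase 1, followed another course: 17.5 ± 0.261 CPM (SD) in vehicle, 8.48 ± 1.47 in chloroquine, 98.9 ± 7.57 in 5-FU and 28.4 ± 0.310 in the combination. It was thus 0.70 above vehicle and 1.73 above chloroquine, and its log2 fold change against 5-FU was -1.80 ± 0.081 (adjusted p = 5.84e-09). FTL, the ferritin light chain, rose from 389.9, 376, 377 and 398 CPM to 642, 658 and 727 CPM. Of 18 selenoprotein genes 8 were lower and 5 higher (median -0.15), led by SELENOW, a small selenoprotein of the cytosol, at 91.4, 88.7, 88.1 and 79.8 CPM in vehicle and 22.7, 24.3 and 26.0 CPM in the combination. SELENOW was at 25.2 ± 1.74 CPM in chloroquine, from which the combination did not differ by the test (log2 difference -0.051 ± 0.089), and at 85.4 ± 8.67 CPM in 5-FU.

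**Figure D4:**
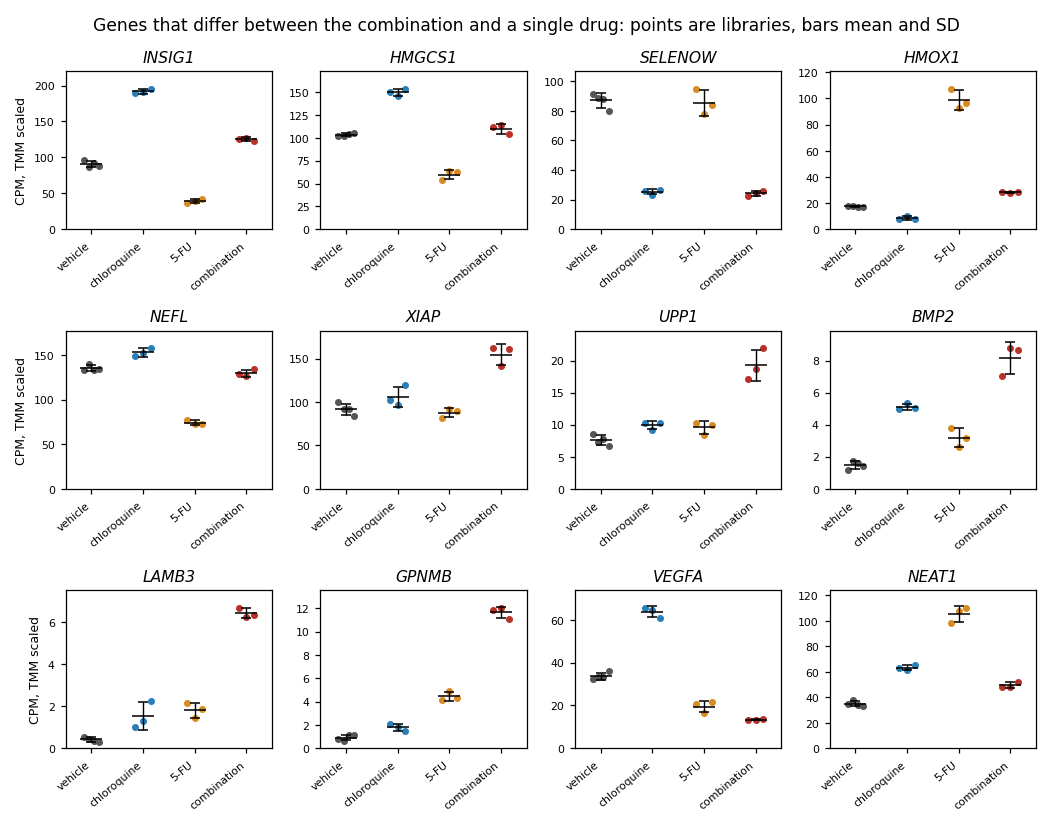
Levels of 12 genes in the 4 groups, in CPM from 0, with a point per library and bars for the mean and SD. INSIG1 and HMGCS1 of the combination lie between chloroquine and 5-FU, SELENOW is low in both groups given chloroquine, XIAP, UPP1, BMP2, LAMB3 and GPNMB are highest in the combination, and HMOX1 and NEAT1 are highest in 5-FU alone.

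Of 34 genes of glycolysis and the hypoxia response, 23 were lower and 5 higher (median -0.50). LDHA, lactate dehydrogenase A, was at 568, 561, 573 and 554 CPM in vehicle and 259.8, 243 and 249 CPM in the combination (-1.17 ± 0.041). VEGFA, the vascular growth factor, was at 32.2, 33.4, 33.1 and 36.1 CPM in vehicle and 13.4, 13.2 and 13.5 CPM in the combination, with 63.9 ± 2.45 CPM (SD) in chloroquine alone. PFKL, a phosphofructokinase, fell to 58.0, 54.5 and 68.4 CPM from 171, 170.2, 176 and 159.9 CPM, which was also below 5-FU alone (126 CPM, log2 fold change -1.07). The glucose transporter SLC2A3 rose, from 2.80, 3.65, 2.92 and 2.78 CPM to 9.61, 9.93 and 9.52 CPM.

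Most transcripts of the mitochondrial genome were higher, while nuclear genes of mitochondria were divided. Of 13 mitochondrially encoded mRNAs, 9 were higher and 0 lower (median 0.32), and their genome's share of all counts was 1.72% ± 0.121 (SD, n = 4) in vehicle and 2.76% ± 0.127 (SD, n = 3) in the combination. MT-ND1, a complex I subunit, was at 964, 763, 800.2 and 910.0 CPM in vehicle and 1975, 1914 and 1772 CPM in the combination (1.14 ± 0.11). MT-ATP6, of the ATP synthase, at 1491 ± 139 CPM and 1397 ± 67.9 CPM did not pass (log2 difference -0.094, adjusted p = 0.46). In the 5 libraries with most transcripts of other tissues, 1 of vehicle and 1 of the combination among them, its log2 difference was -0.14. Of 52 nuclear respiratory chain genes, 9 were higher and 20 lower (median -0.088), and of 76 mitochondrial ribosomal protein genes 14 were higher and 24 lower (median -0.059). Both medians became positive, 0.060 and 0.089, with total counts as the scale, where 20 and 33 genes were higher and 9 and 19 lower, as did that of 37 proteasome genes (-0.14, with 6 higher and 18 lower), which became 0.013 with 11 higher and 8 lower.

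Early response and inflammatory factors were more often higher than lower. Of 28 AP-1 and immediate early genes, 19 were higher and 3 lower (median 0.67), of 19 tested NF-kB factors and cytokines 11 were higher and 1 lower (median 0.52), and of 30 interferon response and nucleic acid sensing genes 14 were higher and 4 lower (median 0.33). FOS was at 0.495, 0.742, 0.681 and 1.5 CPM in vehicle and 3.20, 3.19 and 3.70 CPM in the combination (1.97 ± 0.27), and JUN, its partner, at 251 ± 2.72 CPM (SD) and 271 ± 8.92 CPM, did not pass (log2 difference 0.11, adjusted p = 0.12). JUN passed as higher with total counts as the scale (0.26), with a filter at 10 CPM (0.17) and in a fit of the 2 groups alone (0.12). LIF, a cytokine of the IL-6 family, was at 0.659, 0.685, 0.827 and 0.877 CPM in vehicle and 5.89, 5.57 and 5.60 CPM in the combination (2.88 ± 0.14). RELB, of the noncanonical NF-kB branch, was at 2.20, 2.40, 1.99 and 1.5 CPM and 8.27, 8.36 and 8.49 CPM (2.05 ± 0.14), and IRF7, an interferon-induced factor, rose by 1.62 while IFIH1, a sensor of double-stranded RNA, fell by 0.97. The interferon and NF-kB lists hold genes that leukocytes also express, and the summed leukocyte markers given above were higher in each combination library than in vehicle replicates 1 to 3. PTPRC had 1, 3 and 1 counts there, and the part of leukocyte RNA in these counts was not tested. Without vehicle replicate 4 and combination replicate 2, 12 NF-kB genes were higher and 1 lower, and 13 interferon genes were higher and 3 lower.

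ANKRD1, a target of the coactivator YAP, was at 0.824, 0.799, 0.584 and 0.980 CPM in vehicle and 9.91, 11.7 and 11.1 CPM in the combination (3.77 ± 0.18), with 14.3 ± 1.86 CPM in 5-FU. Of 25 tested Hippo-YAP genes 8 were higher and 5 lower (median 0.087), beside 28.1% higher and 27.2% lower over all genes tested. The list had 12 higher and 2 lower with total counts as the scale, and 5 and 5 without vehicle replicate 4 and combination replicate 2. BMP2, a bone morphogenetic ligand, was at 1.15, 1.71, 1.61 and 1.44 CPM in vehicle and 7.01, 8.77 and 8.67 CPM in the combination, above chloroquine (5.11 CPM, log2 fold change 0.67) and 5-FU (3.18 CPM, 1.36). AXIN2, a WNT feedback gene, fell from 34.7, 33.2, 33.7 and 32.2 CPM to 18.7, 17.8 and 16.8 CPM. Of 23 BMP and WNT genes 10 were higher and 9 lower, with a median of 0.097 that was -0.057 without vehicle replicate 4 and combination replicate 2. Of 13 polyamine genes 2 were higher and 7 lower (median -0.35), or 5 and 6 with total counts as the scale. SAT1, which acetylates polyamines for breakdown, rose from 17.5, 18.9, 17.1 and 19.8 CPM to 41.9, 44.8 and 45.0 CPM, while the synthetic enzymes ODC1 and AMD1 fell by 0.52 and by 0.97 on the log2 scale.

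Of 15 tested intermediate filament genes, 7 were higher and 3 lower (median 0.42). KRT8, a keratin of simple epithelia, was at 3.35, 3.14, 3.16 and 2.78 CPM in vehicle and 16.1, 16 and 17.6 CPM in the combination (2.41 ± 0.11), and its partner KRT18 at 43.0, 43.1, 45.3 and 44.4 CPM and 58.9, 59.2 and 59.5 CPM (0.43 ± 0.067). VIM, vimentin, rose by 0.36, above both single drugs. NEFL was at 135 ± 3.25 CPM (SD) in vehicle, 74.1 ± 2.69 in 5-FU and 129.8 ± 4.03 in the combination, so it was not separated from vehicle (adjusted p = 0.28) and stood above 5-FU by 0.81 ± 0.049. Of 11 tested basal squamous markers out of 21 listed, 7 were higher and 2 lower, of 7 tested differentiation markers out of 29 listed 5 were higher and 0 lower, and of 14 tested neuronal genes 8 were higher and 3 lower. SOX2, a stem cell factor of the esophageal lining, fell from 17, 16.4, 17.2 and 17.1 CPM to 10.3, 10.8 and 12.3 CPM.

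Most calls in 2 classes of long noncoding RNA were higher. Of 13688 protein-coding genes 4115 were higher and 4348 lower (median -0.0065), whereas of 759 lincRNAs 343 were higher and 69 lower (median 0.51). Of 1018 antisense genes 342 were higher and 89 lower (median 0.33), and of 2055 processed pseudogenes 122 were higher and 481 lower (median -0.20). The kit was directional, but the labels do not give the strand setting of the counting, so antisense genes and their partners may share reads. Expression level moved with the direction too: among protein-coding genes the median log2 fold change was 0.35 in the fifth with the lowest mean CPM and -0.13 in the fifth with the highest, and its part in the differences between classes was not tested. MALAT1, a nuclear long RNA, was at 66.6, 67.7, 67.4 and 60.7 CPM in vehicle and 164, 207 and 192 CPM in the combination (1.51 ± 0.11). NEAT1, which scaffolds paraspeckles and is a p53 target, rose from 35, 37.5, 33.6 and 33.3 CPM to 48.4, 47.8 and 52.1 CPM, well under 105 ± 6.42 CPM (SD) in 5-FU alone (log2 fold change -1.09 ± 0.063).

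**Figure D5:**
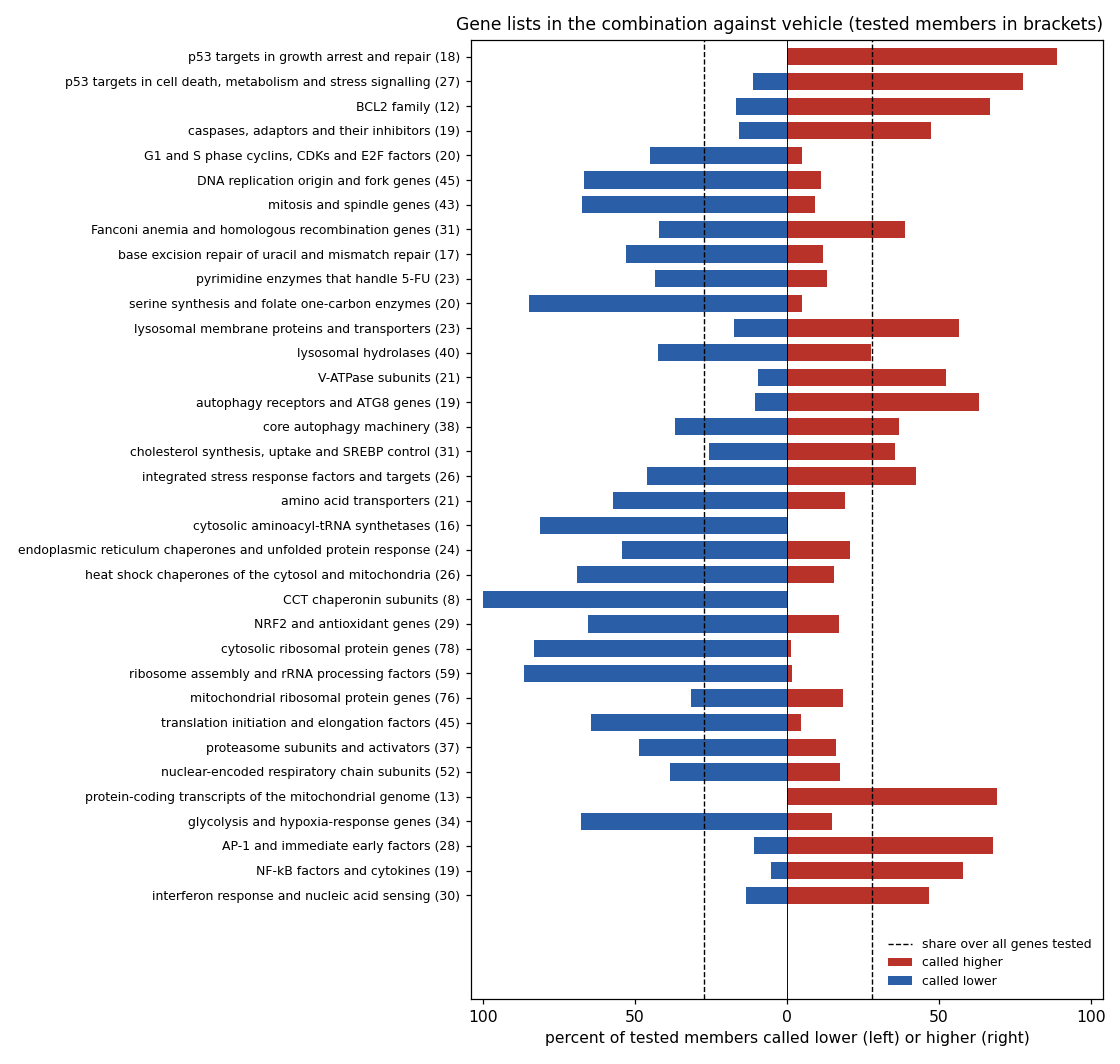
Percent of the tested members of 35 gene lists called lower (blue, left) or higher (red, right) in the combination against vehicle, with dashed lines at the shares over all genes tested, 27.2% lower and 28.1% higher. The p53 target, mitochondrial genome, AP-1 and BCL2 lists extend farthest to the right and the CCT, ribosome, serine and folate and tRNA synthetase lists farthest to the left.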

How the data were processed

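Total RNA of TE11 cells was made into directional libraries, per the labels' protocols. The authors deposited raw read counts per gene symbol, 1 column for each of 13 libraries. The submitters' processing notes name DESeq and the mouse build GRCm38, with no role, although the gene symbols are human; the labels name no aligner, annotation, counter or strand setting. Column names were matched to the sample descriptions. Totals were 17834539 to 23679833 counts; since no molecular identifiers are mentioned, reads may repeat molecules.

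The counts were fitted in edgeR 4.0.16 (R 4.3.3, limma 3.58.1) with a mean for each of the 4 groups, so that all libraries shared the estimate of spread (9 residual degrees of freedom). TMM factors and the filterByExpr filter were used, and 19514 of 60591 genes were tested. Combination minus vehicle, minus 5-FU and minus chloroquine were tested by the quasi-likelihood test, and p-values were adjusted by Benjamini-Hochberg over all genes tested. Genes at an adjusted p under 0.05 were called. The SE is the log2 fold change divided by the square root of F. The steps were tested on simulated data first.

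The comparison, its members and the gene lists were chosen with earlier results of these data known. Named genes were the 10 largest rises and 10 largest falls whose log2 CPM averaged 1 or more, whose groups did not overlap and whose name is not clone-style, the leading rise and fall in every list, key genes of each list, and the largest differences from each single drug; the text gives those that describe the groups, and some genes are not reported here. Lists are described by counts and medians, and no p-value was computed for a list. Their counts against vehicle are to be read beside the shares over all genes tested, 28.1% higher and 27.2% lower. Those shares were 20.2% higher and 18.3% lower against 5-FU, and 24.8% higher and 25.7% lower against chloroquine. Listed symbols without a row of that name were replaced by another symbol of the same gene, such as CYR61 by CCN1. Left unmatched were 5, the tRNA synthetases GARS, MARS, QARS and SARS and the squamous gene LOR.

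Promoters came from RefSeq (GRCh38.p14), matched by symbol for 11738 tested genes. Motifs were read on both strands. The list of cholesterol synthesis, uptake and SREBP control was also scanned, for the string CACNNCAC. It stood in 4 of 24 genes with a window, 16.7%, against 13.9% of tested genes and 14.7% of all windows.

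Same-numbered libraries deviated together for combination and 5-FU (r = 0.341, 0.743 and 0.339). For vehicle (0.274, -0.433 and 0.349) replicates 1 and 3 did so and replicate 2 did not. For chloroquine (-0.441, 0.457 and 0.521) replicates 2 and 3 did so and replicate 1 did not. Replicate 2 of both combination and 5-FU carried transcripts of other tissues (COL1A2 at 153 and 159 counts). Unlike numbers also deviated together, as combination replicate 2 and vehicle replicate 4 did (r = 0.699). Whether the numbers mark pairs was not tested, and the main fit holds no replicate block. Alternatives were DESeq2 1.42.0, limma-voom, other scalings and filters, fits of only the groups compared, a replicate block, a minimum change of 1 log2 unit, and leaving out libraries.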

Additional observations from a re-analysis of the deposited data

Results flagged for a closer look

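For 166 genes named or plotted, the 4 vehicle libraries were screened for a library far from the other 3, and 12 genes had one. Chance flags about 1 in 20 groups. The combination group, with 3 libraries, was not screened.

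Vehicle replicate 2 was the distant library in 6 genes. It was lowest for BBC3 at 12.2 CPM and for SOX2 at 16.4 CPM. It was highest for BCL2L1, a survival gene, at 23.5 CPM, for SQSTM1 at 36.3 CPM, for HSP90AA1, the inducible HSP90, at 3908 CPM and for SLC2A3 at 3.65 CPM. Vehicle replicate 1 was lowest for POLA1 at 121 CPM and for POLR1A, the largest subunit of RNA polymerase I, at 130.0 CPM, and highest for NPM1 at 1309 CPM. Vehicle replicate 4, the library with transcripts of other tissues, was lowest for GAA at 98.8 CPM, for MALAT1 at 60.7 CPM and for ODC1 at 445 CPM. In all 12 genes the 3 combination libraries lay outside the range of the 4 vehicle libraries.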

How the results depend on the processing

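Against vehicle, 10801 genes were called, and the other settings gave 10788 (DESeq2's size factors), 11081 (total counts), 10203 (DESeq2), 10875 (limma-voom), 11034 (no filter), 7450 (at least 10 CPM required in 3 libraries), 11428 (a fit of the 2 groups alone) and 10428 (the 8 libraries with few transcripts of other tissues). The 5 libraries with most hold chloroquine replicates 1 and 2, and 1 library each of vehicle, 5-FU and the combination. The other 8 therefore hold 1 of chloroquine. The fit of the 5 leaves 1 residual degree of freedom, so its calls measure no spread within vehicle, 5-FU or the combination. It is among the settings counted below. Leaving out 1 library gave 9622 to 10322. With a change of at least 1 log2 unit asked for, 2221 genes (1644 higher, 577 lower) remained against vehicle, 970 (199 and 771) against 5-FU and 1777 (915 and 862) against chloroquine. A replicate block gave 10336 genes against vehicle over all libraries and 10955 over the 2 groups. For 5-FU, where same-numbered libraries deviated together at every replicate number, the blocked fit of the 2 groups called 6542 genes. The unblocked one called 6132 and the fit of all groups 7517. Of 166 genes named or plotted, 17 lost their call against vehicle in at least 1 setting, 34 against 5-FU and 15 against chloroquine, while 9, 20 and 9 genes that did not pass gained one; the cause was not tested. With total counts MCL1 turned to 0.026 and XBP1 to 0.0085 against vehicle, and in the 5 libraries XRCC2 turned to -0.18 and HSP90AA1 to -0.11 against 5-FU. Depth limits genes such as DPYD and ATP6V0D2, at under 1 CPM in vehicle.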
